A study of Mus musculus with 4 samples.

Results

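The genes described are the inhibitors of the cyclin-dependent kinases (Cdks) and the D-type cyclins, 10 genes that set how readily a cell enters the division cycle. They were taken by name from the deposited table of 29595 gene rows: 9 names equal a row, and Cdkn2d is found only in 2 rows whose names add a chromosome and strand. RNA was sequenced from right ventricles of adult mice on a mixed C57BL/6 background, from 2 Ezh2-deficient hearts and 2 wild-type hearts. They are called mutant 1, mutant 3, wild type 1 and wild type 2, after their labels. The labels give neither the Ezh2 allele nor the cells in which it was removed, and a bulk ventricle mixes muscle with fibroblasts, vessels and blood. Fewer cells of a type and less RNA per cell cannot be told apart.

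D-type cyclins bind Cdk4 and Cdk6, and the complexes phosphorylate the retinoblastoma protein to free the E2f factors that drive DNA replication. The Ink4 proteins (Cdkn2a to Cdkn2d) block Cdk4 and Cdk6, whereas the Cip/Kip proteins (Cdkn1a to Cdkn1c) bind a wider range of cyclin and Cdk complexes. Ezh2 supplies the enzyme activity of Polycomb repressive complex 2, which methylates histone H3 at genes it keeps silent. The neighbouring Cdkn2a and Cdkn2b genes are textbook targets of Polycomb repression in dividing cells. The comparison asks whether these genes differ in the adult ventricle when Ezh2 is lacking.

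Cdkn2a encodes 2 proteins from separate starts, p16Ink4a, which blocks Cdk4 and Cdk6, and p19Arf, which stabilises p53. The deposited row spans both starts, so its reads cannot be split between them. The 250 bases before each start of Cdkn2a and before the start of Cdkn2b are shown because these neighbours hold the highest ratios among the 10 genes. They are read 5′ to 3′ from RefSeq's GRCm38.p6, which is not the build of the counts, and capitals mark each CG.
Cdkn2a, start of the p19Arf transcript (chr4:89294620-89294869, minus strand): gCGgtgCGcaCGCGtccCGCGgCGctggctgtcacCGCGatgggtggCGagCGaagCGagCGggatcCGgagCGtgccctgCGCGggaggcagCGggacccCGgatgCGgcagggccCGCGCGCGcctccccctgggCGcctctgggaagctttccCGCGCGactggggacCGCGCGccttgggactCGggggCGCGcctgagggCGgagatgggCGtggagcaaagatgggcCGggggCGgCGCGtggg
Cdkn2a, start of the p16Ink4a transcript (chr4:89282193-89282442, minus strand): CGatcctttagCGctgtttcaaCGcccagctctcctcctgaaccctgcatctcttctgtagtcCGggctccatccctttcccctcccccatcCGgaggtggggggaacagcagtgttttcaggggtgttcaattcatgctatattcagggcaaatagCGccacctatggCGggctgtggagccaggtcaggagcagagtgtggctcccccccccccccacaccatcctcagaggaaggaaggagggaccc
Cdkn2b (chr4:89311033-89311282, minus strand): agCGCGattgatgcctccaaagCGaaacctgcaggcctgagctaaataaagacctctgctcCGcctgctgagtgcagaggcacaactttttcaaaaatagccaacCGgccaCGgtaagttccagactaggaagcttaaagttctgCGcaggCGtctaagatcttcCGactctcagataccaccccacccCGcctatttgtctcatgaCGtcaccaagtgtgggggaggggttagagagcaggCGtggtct
Mammalian Polycomb complexes are known to gather at CG-rich promoters, which is why CG was counted. The window before the p19Arf start holds 40 CG, and 1.31% of 32851 RefSeq promoter windows of the same length hold at least as many. The window before the p16Ink4a start holds 7 CG (at least as many in 46.3% of windows) and that of Cdkn2b 12 (33.5%). The median window holds 6. The letters GGGCGG, searched on both strands, occur 2 times before the p19Arf start, and not in the other two windows; 32.7% of all windows hold them. Of the 10 genes, 7 have a window in the table, and among the others Cdkn2c holds up to 29 CG, Cdkn1b 28, Cdkn1a and Ccnd3 up to 19 and Cdkn2d 16.

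The libraries held 18177642 to 23853394 reads. Mitochondrial genes took 34.7% to 47.3% of them. Y-linked Ddx3y was read 754 and 659 times in mutant hearts, against 2 and 2 in wild-type hearts, and Xist, made from the inactive X, had 64 and 17 against 638 and 3227, so sex and genotype cannot be told apart in any result. Ezh2 was read 73 and 70 times in mutant hearts, against 77 and 67. This does not check the labels, since the row gives no reads per exon or per cell type. The defining genes of heart muscle, such as Myh6, were abundant in all 4 libraries. They summed to 46599 and 50997 CPM in mutants, above 42516 and 39055 in wild types, with 5 of 8 above a log2 fold change of 0. Myl2 carried most of this difference, at 16947 and 18459 CPM in mutants against 10871 and 8436 in wild types. Tnnt2 and Myl3 were also higher in both mutants, and Myh6 and Ryr2 were lower in both. Atrial markers, 4 of 4 with a log2 fold change above 0, summed to 3453 and 3084 CPM in mutants, against 431 and 178 in wild types. Nppa carried most of this; without it, a sum added after the data were seen, the others stood at 140 and 113 CPM against 55.3 and 5.48, with the wild types far apart. Fast skeletal muscle markers, 6 of 6 tested above 0, summed to 271, 36.9, 13.5 and 15.4 CPM with mutants 1 and 3 first. Myh4 carried most of the sum in mutant 3, at 44.4 and 33.2 CPM in mutants against 9.97 and 12.0 in wild types. Mylpf, Tnni2, Atp2a1 and Pvalb were high in mutant 1 alone and overlapped between the groups. Tnnt3 and Tnnc2 were above in both mutants, but stood at only 1.01 and 0.152 CPM in mutant 3. Fibroblast markers (839 to 1062 CPM), endothelial markers (470 to 605), smooth muscle markers (330 to 381) and macrophage markers (123 to 175) overlapped between the groups. Erythroid markers, 3 of 3 above 0 (2271 and 3359 against 1936 and 1447 CPM) were above in both mutants, and lymphocyte markers were low in all libraries (2.47 to 7.20 CPM). No defining marker was at 0 in all 4 libraries. The part of these markers in the results below was not tested. Reads are given as deposited and CPM after TMM scaling.

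Of the 10 genes, Cdkn2a alone had an adjusted p under 0.05 (edgeR, quasi-likelihood), and it rose. Over all 16128 tested rows 0.130% passed. Without adjustment, 4 of the 10 genes had a p under 0.05 with a higher level in the mutants (Cdkn2a, Cdkn1a, Cdkn2b and Ccnd2), against 6.49% of all rows, and 0 with a lower level, against 4.38%. Both mutants exceeded both wild types for 5 genes, against 22.3% of all rows, and both lay below for 1 gene, Ccnd3, against 22.4%. Scaled by library totals alone, added after the data were seen, both mutants were above for 4 genes (against 8.49% of all rows), Ccnd1 no longer among them, and below for 3 (against 40.4%), namely Ccnd3, Cdkn2c and Cdkn2d. DESeq2 also passed Cdkn2a alone, where 1.41% of all rows passed. The median log2 fold change was 0.31 over the 10 genes and 0.00 over all tested rows.

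**Figure D1:**
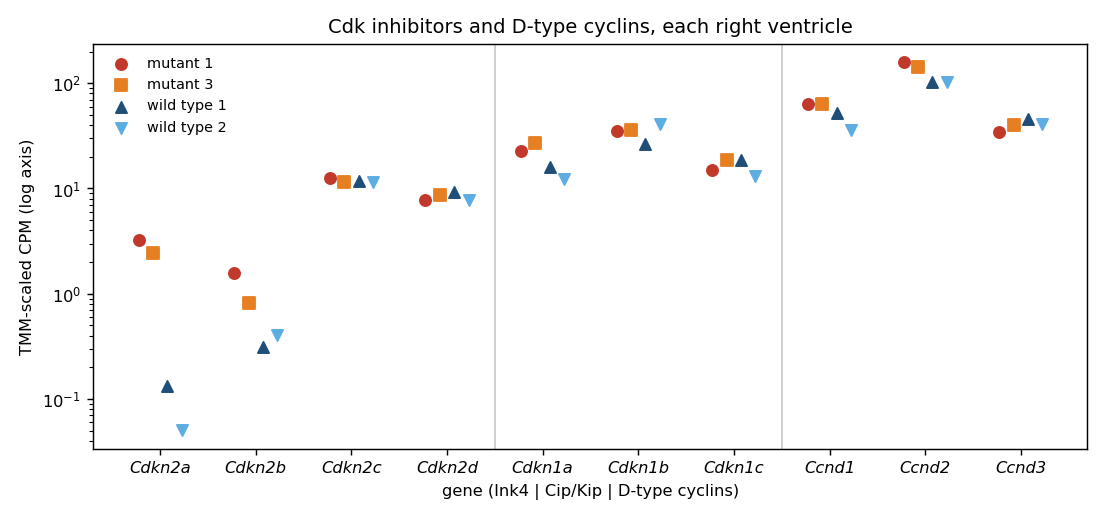
Level of each gene in each right ventricle, as TMM-scaled CPM on a log axis; each point is 1 library, and Cdkn2d is its row on the minus strand. The mutants stand apart from the wild types by far more for Cdkn2a (2.43 and 3.27 against 0.0503 and 0.134 CPM) than for any other gene plotted.

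Within the Ink4 family, the neighbours Cdkn2a and Cdkn2b held higher levels in the mutants, and Cdkn2c and Cdkn2d did not. Cdkn2a (chromosome 4, 88920377 to 88940523, mm9) had 70 reads in mutant 1, 48 in mutant 3, 3 in wild type 1 and 1 in wild type 2. Both mutants were thus far above both wild types, where the locus was close to unread. Its mean level was 2.85 ± 0.589 CPM (SD, n = 2) in mutants against 0.0919 ± 0.0589 in wild types. Its log2 fold change was 4.84 ± 0.62 (SE, adjusted p = 0.0463). The ratio of its reads was 30.3 (11.5 to 113 at 95%, counting error only), so the fold itself was loosely set by the 4 wild-type reads. In the authors' deposited table, the 4 ratios of a mutant to a wild type for Cdkn2a ran from 13.5 (p = 4.5e-10) to 58.6 (p = 1.16e-17). The call for Cdkn2a ended in 5 of 12 alternatives: with limma-voom (adjusted p = 0.0969), with DESeq2's size factors in edgeR (0.0608), with a minimum of 1 CPM in 2 libraries (0.0575), without sex-linked, mitochondrial and abundant rows (0.110) and with 1 row per locus (0.0513). Its adjusted p otherwise ranged from 2.10e-05 to 0.0335.

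Cdkn2b, whose product p15Ink4b blocks the same kinases and is known to be induced by TGF-beta, starts 16.3 kb upstream of Cdkn2a on the same strand (chromosome 4, 88952230 to 88956863, mm9). It was read 34 and 16 times in mutant hearts, against 7 and 8 in wild-type hearts. Both mutants were above both wild types, with mutant 1 at 1.96 times the level of mutant 3. The mean was 1.199 ± 0.548 CPM (SD, n = 2) against 0.357 ± 0.0642, a log2 fold change of 1.74 ± 0.63 (SE) that did not pass (adjusted p = 0.373). The ratio of its reads was 3.43, with a 95% counting interval of 1.89 to 6.58. In the authors' deposited table, Cdkn2b in mutant 3 was 1.93 times wild type 1 (p = 0.151) and 1.52 times wild type 2 (p = 0.352), whereas in mutant 1 it was 4.50 and 3.56 times as high (p = 4.39e-05 and 0.000409).

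Cdkn2c, the p18Ink4c gene, was read 270 and 226 times in mutant hearts, against 262 and 227 in wild-type hearts. The groups overlapped, at 12.03 ± 0.806 CPM (SD, n = 2) against 11.5 ± 0.174, with a log2 fold change of 0.06 ± 0.23 (SE, adjusted p = 0.946). It turned to -0.22 when library totals alone set the scale. Cdkn2d, the p19Ink4d gene, was listed at 2 places of chromosome 9 in mm9, 21092908 to 21095653 on the minus strand and 123836860 to 123839607 on the plus strand. The first row held 166 and 171 reads (mutants) against 210 and 156 (wild types). The second held 156 and 162 against 201 and 153. The near-equal reads of the copies cannot be assigned to either place, and the rows are not independent. Neither differed beyond its error, with log2 fold changes of -0.07 ± 0.26 (SE, adjusted p = 0.945) and -0.10 ± 0.26 (adjusted p = 0.912).

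Around Cdkn2a and Cdkn2b, the 2 other rows with enough reads for the test were not called. Of 16 further rows within 500 kb, 9 had no read in any library, namely Dmrta1, Ifna1, Ifna4, Ifna5, Ifna6, Ifna11, Ifne1, AF032968 and AK144910. Mtap, the methylthioadenosine phosphorylase gene, lies downstream of Cdkn2a and was the best-read neighbour. It was read 285 and 237 times in mutant hearts, against 393 and 290 in wild-type hearts, lower in both mutants but not called (log2 fold change -0.34 ± 0.23 SE, adjusted p = 0.627). Ifnz, an interferon gene, had 5, 16, 13 and 20 reads in the order of the libraries (adjusted p = 0.803). The other 5 rows (OTTMUSG00000011272, OTTMUSG00000011269, OTTMUSG00000011268, Ifna7 and AK148321) held 30 reads or fewer in total and were not tested. Among them OTTMUSG00000011268 had 7 and 9 reads in mutants against 6 and 2, above in both mutants. AK148321 lies over Cdkn2b on the other strand and had 2 reads, both in mutant 1.

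**Figure D2:**
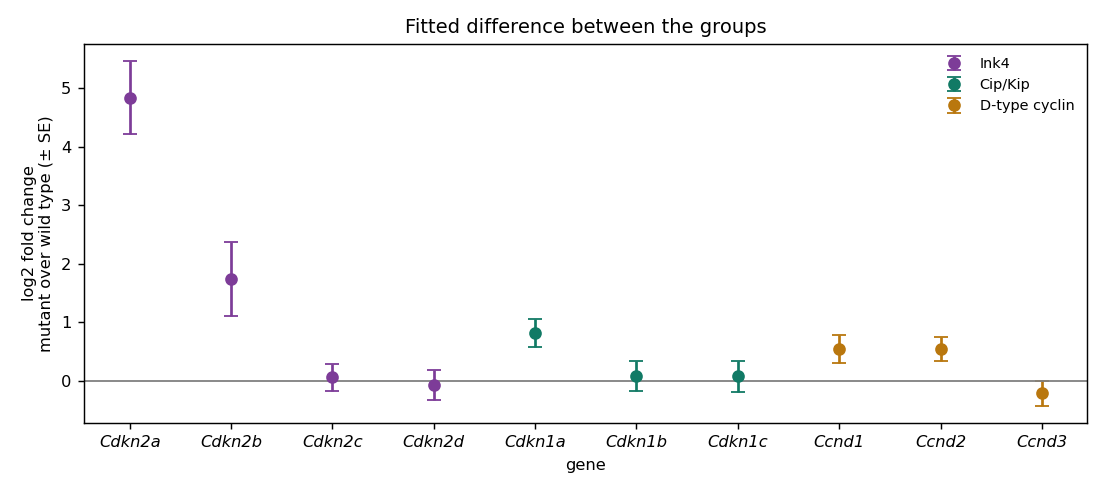
Log2 fold change of each gene, mutant over wild type, from edgeR with its SE as bars (2 libraries per group); colours mark the families. Cdkn2a stands at 4.84, Cdkn2b at 1.74 and Cdkn1a at 0.82. The bars of Cdkn2c, Cdkn2d, Cdkn1b and Cdkn1c span 0, and that of Ccnd3 just reaches it.

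Of the 3 Cip/Kip genes, Cdkn1a was higher in both mutants without passing the test, and the others overlapped between the groups. Cdkn1a encodes p21, the inhibitor best known as a p53 target (chromosome 17, 29230720 to 29237667, mm9). It was read 485 and 533 times in mutant hearts, against 358 and 243 in wild-type hearts, or 22.6 and 27.03 against 15.9 and 12.2 CPM. The lowest mutant was above the highest wild type. Its mean was 24.8 ± 3.11 against 14.1 ± 2.63 CPM (SD, n = 2), with a log2 fold change of 0.82 ± 0.24 (SE, adjusted p = 0.301). Without wild type 1 or without wild type 2 it passed, at adjusted p = 0.00271 and 0.0244, in fits where 12.2% and 22.0% of all rows passed and the lone wild type was assumed to vary like the mutants. Cdkn1b, which encodes p27 and is abundant in resting cells, was read 753 and 712 times in mutant hearts, against 588 and 820 in wild-type hearts. The mutants lay between the wild types, which differed from each other more (26.2 and 41.3 CPM) than the group means did (35.6 ± 0.683 against 33.7 ± 10.7 CPM, SD, n = 2). Its log2 fold change was 0.08 ± 0.26 (SE, adjusted p = 0.935). Cdkn1c, the imprinted p57 gene of chromosome 7, was read 320 and 370 times in mutant hearts, against 420 and 264 in wild-type hearts. Mutant 1 lay between the wild types, and the log2 fold change was 0.07 ± 0.26 (SE, adjusted p = 0.941). Scaled by library totals alone, both signs turned, to -0.20 for Cdkn1b and -0.23 for Cdkn1c; that scaling moved the median of all rows from 0.00 to -0.28.

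The D-type cyclins did not move as a group: Ccnd1 and Ccnd2 stood higher in both mutants and Ccnd3 lower in both, and none passed the test. Ccnd2 (chromosome 6, 127075727 to 127101066, mm9) was read 3381 and 2815 times in mutant hearts, against 2324 and 2028 in wild-type hearts. The wild types were close to each other, at 103 and 102 CPM, below 158 and 143 CPM in the mutants. Its log2 fold change was 0.55 ± 0.21 (SE, adjusted p = 0.396), and stood at 0.56 without wild type 1 and 0.53 without wild type 2. Ccnd1 was read 1371 and 1248 times in mutant hearts, against 1168 and 709 in wild-type hearts. The mutants were alike (64.0 and 63.3 CPM) and the wild types were not (52.01 and 35.7 CPM). Its log2 fold change was 0.54 ± 0.24 (SE, adjusted p = 0.477), and stood at 0.84 without wild type 1 and 0.29 without wild type 2. In the authors' deposited table, which is scaled by totals, Ccnd1 of mutant 3 was 0.900 times wild type 1 (p = 0.00973), so that scaling makes the groups overlap. Ccnd3 was read 737 and 789 times in mutant hearts, against 1020 and 810 in wild-type hearts. Its highest mutant (40.01 CPM) lay just under its lowest wild type (40.8 CPM), and the log2 fold change was -0.21 ± 0.21 (SE, adjusted p = 0.749). These signs held under all 12 alternatives for each of the 3 genes.

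A short row inside Ccnd2, named after its values were seen, had a higher log2 fold change than Ccnd2 itself. AK187594 covers 181 bases on the same strand, 87 to 267 bases after the start of the Ccnd2 row (chromosome 6, 127100799 to 127100979, mm9). It was read 1260 and 1054 times in mutant hearts, against 506 and 419 in wild-type hearts. Its log2 fold change was 1.36 ± 0.21 (SE, adjusted p = 0.0795 by edgeR and 6.04e-05 by DESeq2). Its reads equalled 37.3% and 37.4% of the Ccnd2 reads in mutants, against 21.8% and 20.7%. No source used here says whether they were also counted in Ccnd2. If they were, the rest of Ccnd2 stood at 99.0 and 89.3 CPM in the mutants and at 81.0 and 81.0 in the wild types. Of the other overlapping rows, AK020388 and AK043994 over Ccnd2 and AK088937 over Ccnd3 held 5 to 24 reads per library.

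Per length of merged exons, the D-type cyclins Ccnd2 and Ccnd1 held the highest mean levels and Cdkn2a and Cdkn2b the lowest. Nuclease treatment lowers abundant transcripts, so these levels are a description of the libraries. The lengths join the exons of all annotated transcripts of a gene (8775 bases for Ccnd3, 9409 for Ccnd2). The order and the sums therefore depend on that choice of length. Before the division, Ccnd3 and Ccnd1 stood at 43.1 and 43.8 CPM in the wild types. In the wild types, Ccnd2 stood at 10.9 ± 0.109 CPM per kilobase (SD, n = 2) and Ccnd1 at 9.31 ± 2.45, neighbours in the order that did not differ beyond their spread. Cdkn1c (7.84 ± 1.88) and Cdkn1b (7.41 ± 2.34) came next and also lay within each other's spread. Both overlapped Ccnd1 between libraries, and in wild type 2 Cdkn1b (9.06) stood above Ccnd1 (7.57). Cdkn2d (5.46 ± 0.675), Ccnd3 (4.91 ± 0.376), Cdkn2c (4.30 ± 0.0647) and Cdkn1a (3.96 ± 0.739) followed. Of these, Ccnd3 and Cdkn2c did not overlap between libraries, and the other neighbours did. Cdkn2b (0.257 ± 0.0462) and Cdkn2a (0.0785 ± 0.0502) were lowest. In the mutants Cdkn2a reached 2.43 ± 0.502 CPM per kilobase, still under Ccnd3, the lowest of the cyclins there (4.24 ± 0.453), and above Cdkn2b (0.863 ± 0.394). Summed per kilobase, the 3 D-type cyclins stood at 34.3 and 33.2 in mutants against 27.2 and 23.1. The Cip/Kip genes summed to 21.4 and 24.7 against 19.4 and 19.02, and the Ink4 genes, with the first Cdkn2d row, to 13.5 and 12.4 against 10.6 and 9.57. Both mutants exceeded both wild types in each of the 3 sums after TMM scaling. Scaled by library totals alone, a setting added after the data were seen, all 3 sums lost that separation. The cyclins then stood at 33.8 and 27.4 against 30.4 and 25.2, the Ink4 genes at 13.4 and 10.3 against 11.9 and 10.5, and the Cip/Kip genes at 21.1 and 20.5 against 21.7 and 20.8.

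**Figure D3:**
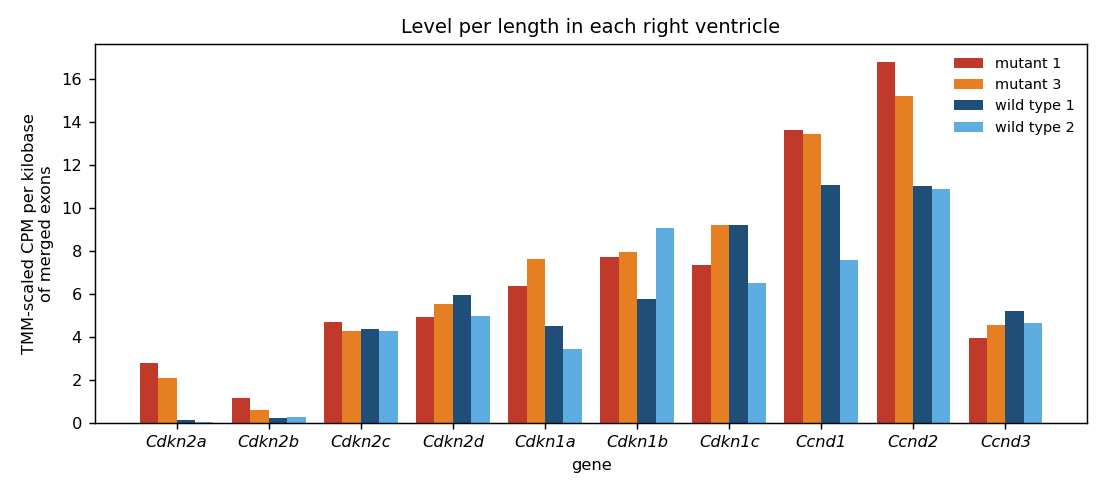
TMM-scaled CPM per kilobase of merged exons for each gene, 1 bar per library, from 0. Ccnd2 is highest in each library but wild type 1, where Ccnd1 (11.04) and Ccnd2 (11.00) are level, and Cdkn2a is lowest in both wild types.

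Partners and pathway genes, 8 lists of 108 genes, held no called gene by edgeR: 0 of 97 tested members passed, against 0.130% of all rows, and 1 passed by DESeq2, against 1.41%. Of the 97, 5 had an unadjusted p under 0.05 with a higher level, against 6.49% of all rows, and 4 with a lower level, against 4.38%. Their median log2 fold change was -0.08. Among the Cdks and other cyclins, 5 of 10 tested genes were above 0 (median 0.01). Cdk6, a partner of the D-type cyclins, was read 36 and 48 times in mutant hearts, against 69 and 69 in wild-type hearts (adjusted p = 0.543), and Cdk2, the partner of cyclin E, had 125, 143, 196 and 175 in the order of the libraries (0.600). Of the Rb family and E2f factors, 3 of 13 were above 0 (median -0.34). Tfdp2, an E2f partner, was at 12.7 ± 1.18 against 16.8 ± 0.252 CPM (SD, n = 2, adjusted p = 0.545), and E2f4, a repressive E2f factor, at 15.1 ± 0.0775 against 19.3 ± 2.44 (0.595). Of the turnover factors, 8 of 13 were above 0 (median 0.13), with Cks2, a small Cdk-binding protein, at 25, 39, 14 and 17 reads (0.505) and Cops5, a signalosome subunit that binds p27, at 78.9 ± 4.44 against 60.5 ± 0.0957 CPM (0.540). Of 7 tested genes in the list of other Cdk-binding inhibitors and assembly factors, 4 were above 0 (median 0.06). Cdkn2aip (0.696) and Cdkn2aipnl (0.753) had the smallest p there.

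The p53 arm was tested because p19Arf acts through it, and none of its regulators passed. Of 6 tested regulators, 3 were above 0 (median -0.01). The 2 of smallest p were Hipk2 and Trp63. Hipk2, a kinase of p53, was lower, at 885, 403, 1187 and 952 reads (adjusted p = 0.486). Trp63, a p53 relative, was higher, at 17, 20, 12 and 7 (0.587). Of 18 tested p53 targets, 10 were above 0 (median 0.14), and 3 had an unadjusted p under 0.05 with a higher level, where 6.49% of all rows did, and 0 with a lower level, where 4.38% did. Gdf15, which encodes a secreted stress factor, was read 193 and 48 times in mutant hearts, against 7 and 8 in wild-type hearts (log2 fold change 3.99 ± 0.70 SE, adjusted p = 0.105 by edgeR and 2.27e-05 by DESeq2). Both mutants exceeded both wild types, and mutant 1 was far above mutant 3. Phlda3, a p53-induced inhibitor of Akt, was at 10.6 ± 2.03 against 5.84 ± 1.00 CPM (SD, n = 2, adjusted p = 0.344). The third, Eda2r, a death-receptor relative named after its values were seen, had 39, 35, 16 and 19 reads (0.438). Ccng1, a widely used p53 target also chosen after its values were seen, had a log2 fold change of -0.05 ± 0.22 (SE, adjusted p = 0.955).

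Genes of DNA replication and mitosis lay on both sides of 0, with 6 of 17 above it and a median of -0.28. Without adjustment, 1 had a p under 0.05 with a higher level, where 6.49% of all rows did, and 2 with a lower level, where 4.38% did. Top2a, the topoisomerase of dividing cells, was read 61 and 54 times in mutant hearts, against 106 and 139 in wild-type hearts (adjusted p = 0.307), and Cenpa, the centromeric histone H3, had 787, 597, 507 and 340 (0.329). The other lower gene, Ccnf, a substrate receptor of a ubiquitin ligase named after its values were seen, had the largest fold of the tested genes of the list, with 10 and 5 reads in mutants against 33 and 21 (log2 fold change -1.79 ± 0.60 SE, adjusted p = 0.351). Among upstream signals, 5 of 13 were above 0 (median -0.20). Tgfb2, a ligand of the pathway known to induce Cdkn2b, was read 448 and 362 times in mutant hearts, against 239 and 217 in wild-type hearts (log2 fold change 0.86 ± 0.22 SE, adjusted p = 0.235), and Foxo1, a known activator of Cdkn1b, had 353, 325, 684 and 475 (-0.72 ± 0.23, adjusted p = 0.327). Both were named as the genes of smallest p in their list, and neither passed. Of the 13, 1 had an unadjusted p under 0.05 with a higher level (6.49% of all rows) and 2 with a lower level (4.38%). Smad4, a mediator of TGF-beta signals also named after its values were seen, was the third of these, at 385 and 354 reads against 626 and 470 (adjusted p = 0.446).

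**Figure D4:**
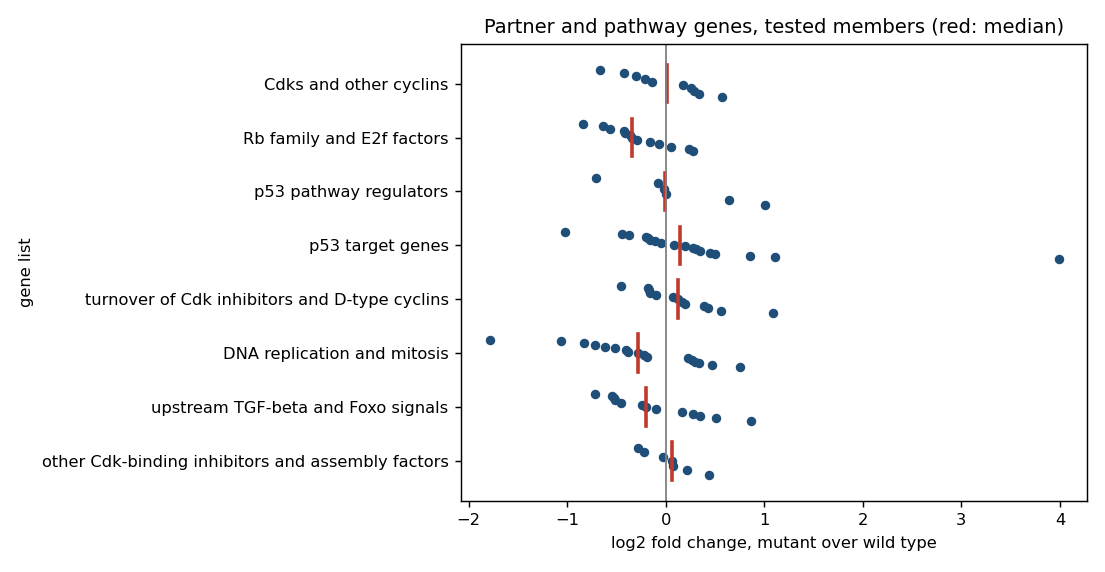
Log2 fold change, mutant over wild type, of each tested gene of the 8 partner and pathway lists; each point is 1 gene and a red line the median of its list. Medians lie between -0.34 and 0.14, and Gdf15 stands farthest from 0, at 3.99.

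The 5 genes whose pattern was nearest to Cdkn2a over the 4 libraries were Tnni1, Tbx15, Myh4, Dio2 and Tchhl1, of 11632 autosomal genes compared. Likeness was the Euclidean distance of centred log2(CPM + 1), 0.236 for Tnni1 to 0.285 for Tchhl1. Tnni1, the slow skeletal troponin I, was read 70 and 45 times in mutant hearts, against 1 and 4 in wild-type hearts. Tbx15, a T-box developmental factor, had 71 and 49 against 5 and 6, and Tchhl1, a trichohyalin-like gene, had 45 and 37 against 0 and 0. Dio2 and Myh4 had higher levels, with 155 and 136 against 23 and 25 reads and 951 and 655 against 224 and 238. Their fitted ratios, 6.18 and 3.54, were far below the 28.6 of Cdkn2a. The added 1 shrinks differences of genes at low CPM, so a small distance does not mean a like fold. Myh4 is also one of the fast skeletal markers given above.

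**Figure D5:**
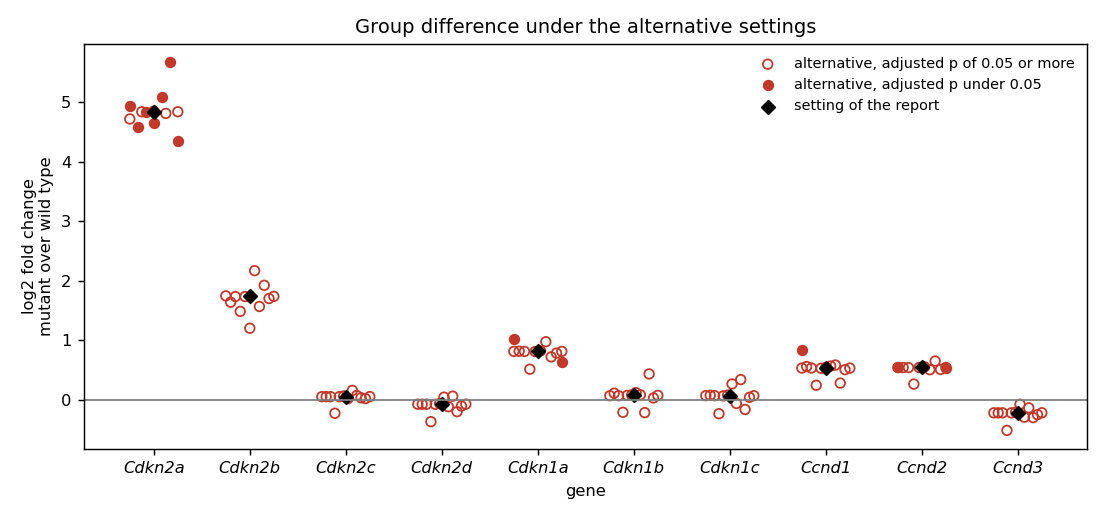
Log2 fold change of each gene under each alternative (circles, filled where the adjusted p was under 0.05) and under the setting of the report (diamonds). Cdkn2a ranged from 4.35 to 5.67 and Cdkn2b from 1.21 to 2.17, above 0 throughout, and Cdkn2c, Cdkn2d, Cdkn1b and Cdkn1c fell on both sides of 0.

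Across the alternatives, Cdkn2b was never called in 11 (adjusted p from 0.0650 to 1.00), being too low for the fit with a minimum of 1 CPM. Cdkn1a, Ccnd1 and Ccnd2 were called only with a wild type left out. In those fits the lone wild type was assumed to vary like the mutants. Cdkn2c, Cdkn2d, Cdkn1b, Cdkn1c and Ccnd3 were called in none of the alternatives.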

How the data were processed

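RNA was sequenced from the right ventricle of 4 adult mouse hearts. The members and lists were chosen with earlier results of these data known. Per the labels' protocols, polyadenylated RNA libraries were treated with duplex-specific nuclease, an enzyme that lowers the share of abundant transcripts. The submitters' processing notes name mm9, Cufflinks and TopHat 1.2.0; no source used here gives the counting rule, the annotation or the use of strand. The deposited read counts are whole numbers per gene row and library and were the input. The authors' CPM equals reads over the library's total in the table and was only checked. The authors' ratio and p-value compare single libraries, per the file headers, and were only quoted.

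Of 29595 rows, 16128 passed edgeR's filterByExpr. The two-sided quasi-likelihood test of edgeR 4.0.16, run in R 4.3.3, used TMM scaling and the 4 libraries without a covariate. Its p-values were adjusted over all tested rows (Benjamini-Hochberg), and they measure only the spread between these hearts. A call is an adjusted p under 0.05. The SE of a log2 fold change came from the F statistic. Counting intervals are exact at 95% and cover counting error only. Alternatives, 12 in all, included DESeq2 1.42.0, limma-voom (limma 3.58.1), other scalings and filters, and leaving out each library. The fit was tested on simulated data.

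The genes named are the 10 members, the called or else the 2 genes of smallest p in each of 8 lists, all rows within 500 kb of Cdkn2a or Cdkn2b, and the 5 genes nearest in pattern to Cdkn2a, with Ezh2, Ddx3y and Xist for the labels; others are marked. Lengths came from merged GENCODE exons of a later build and promoter letters from RefSeq. Of 108 listed genes, 103 matched a row.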

Additional observations from a re-analysis of the deposited data

How the results depend on the processing

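The count of calls over all rows (21) was 227 by DESeq2, 156 with library totals alone, 317 with no filter on low counts, 3 without sex-linked, mitochondrial and abundant rows, and 63 to 3675 with a library left out (3675 without wild type 2). Of the 10 genes, 1 was called in the setting reported and 0 with limma-voom, DESeq2's size factors, a minimum of 1 CPM, those rows left out or 1 row per locus. The log2 fold change of Cdkn2a in those 5 fits was 4.72, 4.84, 4.85, 4.81 and 4.84, so its size moved little as its adjusted p crossed 0.05; it was 4.35 to 5.67 with a library left out. Of the pathway genes, 0 were called, 1 by DESeq2, 1 with library totals alone and 1 with no filter (Gdf15 each time), and 0 to 24 with a library left out (8 without wild type 1, 24 without wild type 2). Over all rows, 12.2% passed without wild type 1 and 22.0% without wild type 2. The lone wild type was assumed to vary like the mutants there, so these 8 and 24 calls are not read as a change of the pathway genes. Scaling the levels by library totals alone, added after the data were seen, moved the count of genes with both mutants lower from 1 to 3. Over all tested rows, the share with both mutants lower moved from 22.4% to 40.4%. The same scaling moved the difference of the summed levels per kilobase (mutants minus wild types) from 8.58 to 2.81 for the cyclins, 3.86 to -0.45 for Cip/Kip and 2.89 to 0.656 for Ink4. With library totals alone the sign turned for Cdkn2c (-0.22), Cdkn1b (-0.20) and Cdkn1c (-0.23). With a library left out, the log2 fold change ran from -0.21 to 0.44 for Cdkn1b, -0.16 to 0.34 for Cdkn1c, -0.19 to 0.0661 for Cdkn2d on the minus strand, -0.21 to 0.0183 for Cdkn2d on the plus strand, 0.63 to 1.02 for Cdkn1a, 0.29 to 0.84 for Ccnd1 and 0.51 to 0.66 for Ccnd2. The cause was not tested. No paired analysis was possible because the labels name no pairs of hearts. With 2 hearts per group and sex aligned with genotype, a gene that did not pass is not shown to be alike in the groups, and Cdkn2a and Cdkn2b rest on 4 and 15 wild-type reads.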
